A study of Mus musculus with 20 samples.

Results

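The comparison described here is that of continuous (tonic) gonadotropin-releasing hormone (GnRH) at 100 nM with tonic GnRH at 10 nM in LβT2 cells, an immortalised mouse line of the gonadotrope, the pituitary cell that makes luteinising and follicle-stimulating hormone. Its members were the 4 arrays of 20 whose titles name tonic GnRH: arrays A and D at 100 nM and arrays B and C at 10 nM. In every group the cells had grown on microcarrier beads for 5 days, were moved to serum-free medium, and were equilibrated in a perifusion column for 1 h and perifused for 4 h before total RNA was taken for Affymetrix arrays. The other arrays had 8, 4, 2 or 1 pulses of 2 min each over the same 4 h, or medium alone. The unstimulated arrays bear the letters A and D, and pulses of both doses, with 2 arrays each, were available for 8, 4 and 1 pulses. Every 100 nM array bears the letter A or D and every 10 nM array B or C, so that dose and letter cannot be told apart within any pattern of delivery. The labels do not say that arrays of a group came from separate cultures, so that p-values measure the spread between these arrays, which may be technical.

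The GnRH receptor acts through Gq proteins, which raise calcium and activate protein kinase C and the MAP kinases, and these induce immediate early transcription factors such as Egr1. Pulses of GnRH sustain gonadotropin synthesis in the pituitary, whereas continuous GnRH is known for desensitising the gonadotrope. Dual-specificity phosphatases, RGS proteins and Nab corepressors act as brakes on this signalling.

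Signals of all 20 arrays had been scaled to a like trimmed mean (2501.25 to 2501.75), with medians of 705 to 836. The log2 signals of the replicate arrays correlated at 0.974 at either tonic dose, and those of arrays of different tonic dose at 0.957 to 0.968. The 3' to 5' ratio of the Gapdh control probe sets, a measure of RNA integrity, lay between 0.955 and 1.07 on the 4 tonic arrays. That of the actin control was 2.55 and 2.38 at 100 nM (A, D) and 1.8 and 2.41 at 10 nM (B, C). Cga, the gonadotropin alpha subunit, was at 89500 to 128000 on the tonic arrays. The 8 gonadotrope markers, 7 of them tested, summed to 170000 to 205000 there, and Cga was the largest part of each sum. Titles define the groups here, although the separate pulse number field disagrees with the title for 8 of 20 samples, among them tonic 100 nM D and tonic 10 nM C, where it gives 1 pulse. No detection calls were used, and 2 arrays a group limit the precision.

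With tonic GnRH at 100 nM the genes that rose over 10 nM included the protease Mmp12, the protease inhibitor Serpinb2, the receptors Plaur and Csf2rb2 and the transcription factors Klf4 and Hey1. Those that fell included the calcium channel subunits Cacng1 and Cacnb2, the sterol synthesis enzymes Cyp51 and Mvd, and the endoplasmic reticulum proteins Pdia4 and Creld2. The moderated limma test with Benjamini-Hochberg adjustment over 8491 probe sets called 68 (0.801%), of which 42 (0.495%) were higher at 100 nM and 26 (0.306%) lower. They belong to 38 and 23 named genes, with 2 unnamed probe sets in either direction. At an unadjusted p under 0.05 there were 1197 probe sets, where 425 would be expected by chance. Changes ran from 1.6-fold to 4.53-fold among those higher and from 1.54-fold to 3.13-fold among those lower. By 1 representative probe set a gene, 54 of 6214 genes (0.869%) passed. The names of 11 of the 42 and 4 of the 26 probe sets carry a suffix that marks probes shared with other transcripts or otherwise less specific. Both 100 nM arrays lay above both 10 nM arrays for 1655 probe sets (19.5%) and below them for 2026 (23.9%), and the groups did not overlap for any of the 68. Differences are of log2(signal + 166.8), which understates the change of dim genes. Calls depended on the constant too. With a smaller one, at the 10th percentile of signals, 5 of the 26 called named genes lost their calls. In these bulk samples, fewer cells expressing a gene and less RNA per cell cannot be told apart.

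**Figure D1:**
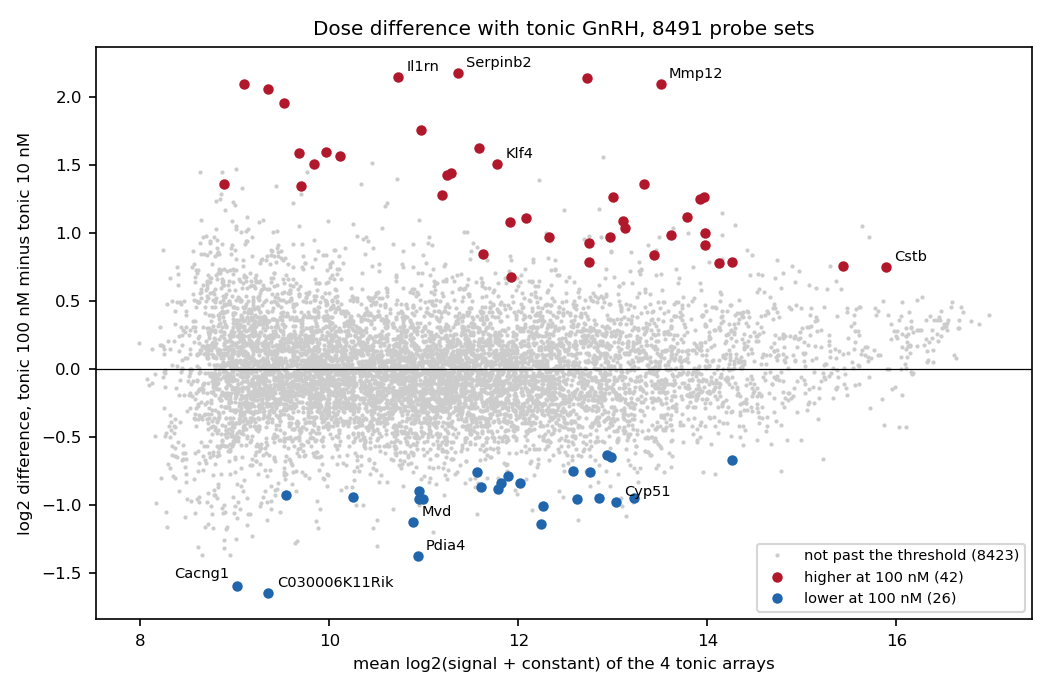
Difference between tonic 100 nM and tonic 10 nM (log2) for each tested probe set against its mean log2 signal, with 1 point per probe set. Red points are the 42 called higher, which reach 2.18, blue points the 26 called lower, which reach -1.65, and grey points the others.

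Among the genes that rose, the secreted and cell-surface proteolysis system was represented by Serpinb2, Mmp12 and Plaur. Serpinb2, an inhibitor of plasminogen activators, was at 3890 and 7510 at 100 nM, 1060 and 1070 at 10 nM, and 147 and 222 without GnRH. The doses did not overlap, and it was 4.53-fold higher at 100 nM (log2 2.18 ± 0.35 SE, adjusted p = 0.00462, n = 2 in each group). With a floor at the 10th percentile in place of the constant, the adjusted p of Serpinb2 was 0.0514. Mmp12, the macrophage elastase, was at 25200 and 22700 at 100 nM, 6460 and 4610 at 10 nM, and 331 and 260 without GnRH. Both 100 nM arrays lay far above both 10 nM arrays, and both doses above the unstimulated arrays, with a dose difference of 2.10 ± 0.33 (adjusted p = 0.00462) and of 2.14 ± 0.39 by a second probe set. Plaur, the urokinase receptor, was at 1230 and 1520 against 393 and 357, with 65.5 and 95.3 in unstimulated cells. Its difference was 1.51 ± 0.33 (adjusted p = 0.0395), which did not pass with quantile normalisation or equal array medians. Nor did it pass with the constant at the 10th percentile (adjusted p = 0.113) or with the floor (0.21). Il1rn, the interleukin-1 receptor antagonist, was at 5440 and 2130 against 722 and 564, and the unstimulated arrays read 86.2 and 152. Its 2 arrays at 100 nM differed from each other the most of these 4 genes, yet both lay above the 10 nM arrays (2.15 ± 0.39, adjusted p = 0.0152). With the floor the adjusted p of Il1rn was 0.098.

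The promoters of these 4 genes are shown because each holds an AP-1 site, TGANTCA (either strand), in the 250 bases before a start of the gene. Mmp12 and Serpinb2 had 2 windows each, Il1rn 3 and Plaur 1, and the first that held the site there is shown. RefSeq windows of the mouse build GRCm38.p6 were used, on the plus strand for all 4, at chr9:7347124-7347373 for Mmp12, chr1:107511173-107511422 for Serpinb2, chr7:24462233-24462482 for Plaur and chr2:24336610-24336859 for Il1rn. The AP-1 site is in capitals.
Mmp12: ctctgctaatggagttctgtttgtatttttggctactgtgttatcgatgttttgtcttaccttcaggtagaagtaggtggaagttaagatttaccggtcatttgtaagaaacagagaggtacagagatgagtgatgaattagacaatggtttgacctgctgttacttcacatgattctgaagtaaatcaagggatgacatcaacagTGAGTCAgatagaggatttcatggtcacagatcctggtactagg
Serpinb2: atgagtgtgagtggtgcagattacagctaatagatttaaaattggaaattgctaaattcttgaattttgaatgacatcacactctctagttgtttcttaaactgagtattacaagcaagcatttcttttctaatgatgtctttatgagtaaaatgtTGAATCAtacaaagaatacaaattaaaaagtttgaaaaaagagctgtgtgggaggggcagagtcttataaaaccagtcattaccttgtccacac
Plaur: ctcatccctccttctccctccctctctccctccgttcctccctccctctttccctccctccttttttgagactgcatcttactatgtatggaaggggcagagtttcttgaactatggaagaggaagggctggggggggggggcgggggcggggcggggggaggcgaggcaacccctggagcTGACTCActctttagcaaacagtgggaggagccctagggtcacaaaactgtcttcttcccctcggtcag
Il1rn: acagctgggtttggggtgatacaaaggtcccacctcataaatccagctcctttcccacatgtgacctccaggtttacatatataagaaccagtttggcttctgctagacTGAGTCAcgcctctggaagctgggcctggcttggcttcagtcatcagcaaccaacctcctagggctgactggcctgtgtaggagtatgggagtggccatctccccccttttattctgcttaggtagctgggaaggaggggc
Counts took in each whole stored window, which also runs past the start, and a gene counted if any of its windows matched. Of the 38 genes that rose, 30 had a window, and 8 of these (26.7%) held the site: Il1rn, Mmp12, Plaur, Serpinb2, Ampd3, Capn2, Rnf220 and 1810058I24Rik. Of the 23 genes that fell, 17 had a window and 0 held it, against 333 of 5009 tested genes (6.65%). Counted by window rather than by gene, 2565 of 32851 windows in all held it (7.81%). Other motifs were searched too. In the 30 genes that rose, the Egr site was in 7 (23.3%, against 12.6% of tested genes) and the serum response element in 3 (10% against 1.76%). The cAMP element core was in 5 (16.7% against 13.8%) and the E-box in 2 (6.67% against 12.3%). The heat shock core was in 2 (6.67% against 6.65%). The AP-1 site was in 0 of 17 immediate early and 0 of 11 feedback genes with a window. A match describes letters in this window and no more.

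Other genes that rose are cytokine or hormone related. Csf2rb2, a beta subunit of the interleukin-3 receptor whose near-identical copy Csf2rb may share its signal, was at 5890 and 4620 against 1990 and 1240, with 632 and 579 unstimulated (1.63 ± 0.26, adjusted p = 0.00462). Ifi202b, an interferon-inducible gene, was at 967 and 1400 against 102 and 214. The unstimulated arrays read 111 and 24.3 and overlapped the 10 nM arrays. Its difference was 2.06 ± 0.38 (adjusted p = 0.0174), and the Ifi202 family has closely similar members. The call of Ifi202b was lost with the constant at the 10th percentile (adjusted p = 0.0864) and with the floor (0.114). Nppb, the B-type natriuretic peptide, rose by 1.57 ± 0.35 (adjusted p = 0.0401), with 100 nM arrays of 2730 and 1080 against 632 and 349. Anxa1, annexin A1, rose by 1.60 ± 0.32 (adjusted p = 0.0239), whereas a second probe set gave 1.45 (adjusted p = 0.0597). Nppb and Anxa1 also lost their calls with the constant at the 10th percentile (adjusted p = 0.0544 and 0.0573) and with the floor (0.0653 and 0.117).

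Because several of these genes are known from macrophages, the leukocyte markers are given beside them, and their part in these results was not tested. The 5 listed macrophage and leukocyte markers, 3 of them tested, summed to 5560 and 4890 at 100 nM, 3930 and 3160 at 10 nM, and 2370 and 2670 without GnRH. Cd68, a lysosomal glycoprotein, was at 3160 and 2480 against 1760 and 1020 (0.97 ± 0.31, adjusted p = 0.167). Cd14, a coreceptor for lipopolysaccharide, was at 1730 and 1910 against 1400 and 1440, and Csf1r, the receptor of macrophage colony-stimulating factor, at 564 and 427 against 668 and 617. Cd68 and Cd14 were thus higher at 100 nM without overlap, Csf1r lower without overlap, and most of the difference in the sum lay in Cd68. Ptprc and Lyz2, the defining leukocyte and macrophage markers, did not pass the filter on low signals (427 on at least 2 arrays), with 45.4 to 68.7 for the Ptprc probe set and 29.8 to 52.5 for the Lyz2 probe set used in the sum, on the tonic arrays. A second Lyz2 probe set read 105 on 10 nM array B and 11 to 18.8 on the other tonic arrays.

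The transcription regulators Klf4, Hey1 and Id2 rose. In the list of chromatin and transcription regulators 1 of 31 tested genes, Id2, rose (0.531% of all genes did) and 0 fell, and the median was 0. Klf4, a Krüppel-like factor induced by growth signals, was at 6510 and 5050 against 2260 and 1600, with 509 and 815 unstimulated (1.51 ± 0.23, adjusted p = 0.00462). Hey1, a Notch-pathway repressor, was at 1140 and 1360 at 100 nM and 253 and 361 at 10 nM, and the unstimulated arrays read 596 and 658. So Hey1 was higher than unstimulated at 100 nM (0.83) and lower at 10 nM (-0.75), with a dose difference of 1.59 ± 0.25 (adjusted p = 0.00462). Id2, an inhibitor of helix-loop-helix factors, rose by 0.93 ± 0.21 (adjusted p = 0.0456), a call that was lost with quantile normalisation, equal array medians and most other alternatives. Ampd3, the erythrocyte AMP deaminase, rose by 1.44 ± 0.31 and Actn1, the actin cross-linker alpha-actinin, by 0.79 ± 0.18 (adjusted p = 0.0395 and 0.0456). With equal array medians both lost their calls, and Actn1 also with quantile normalisation. Impact, a regulator of translation, rose by 1.76 ± 0.32 (adjusted p = 0.0138).

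**Figure D2:**
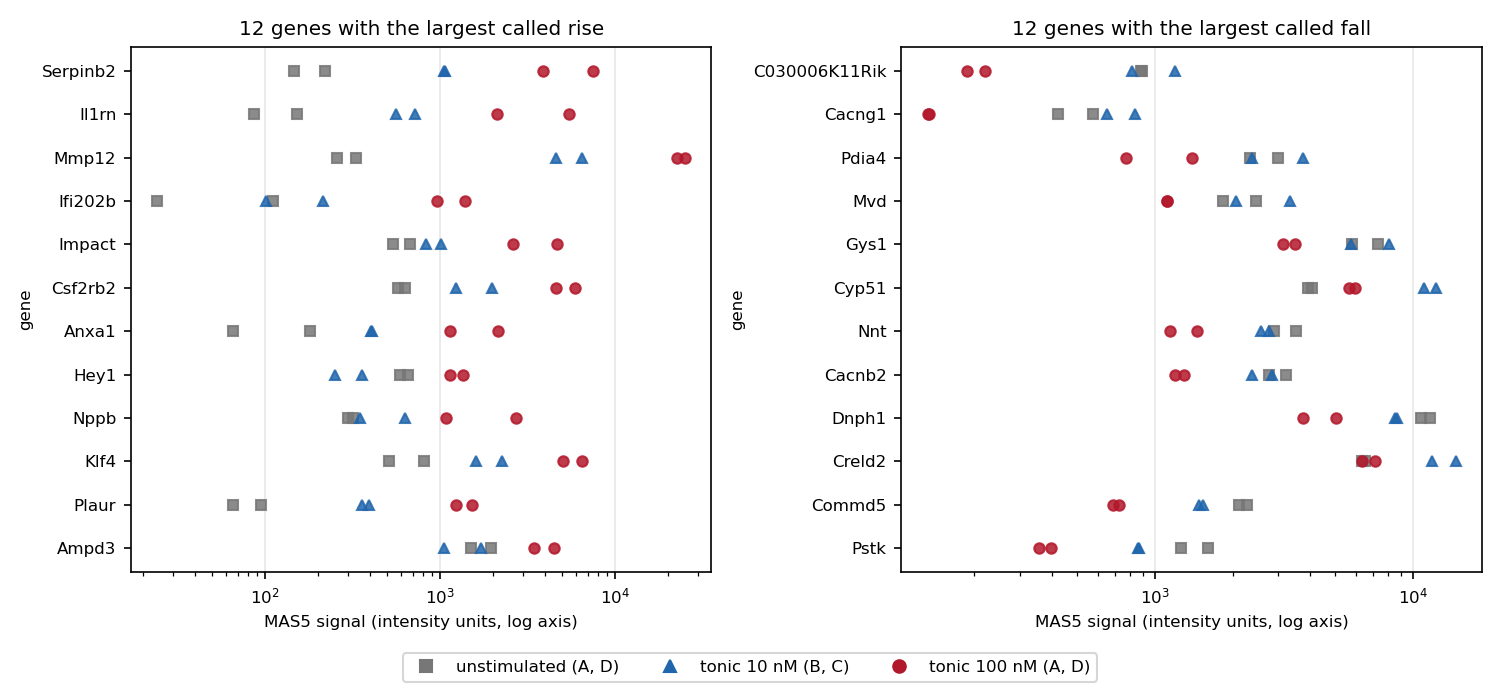
MAS5 signal (intensity units, log axis) of the 12 genes with the largest called rise and the 12 with the largest called fall on each array of tonic 100 nM, tonic 10 nM and unstimulated cells, with 1 point per array. For each gene shown, both 100 nM arrays lie on one side of both 10 nM arrays, as the values of Mmp12 (25200 and 22700 against 6460 and 4610) show.

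The genes that fell include ion-channel subunits and enzymes. Cacng1, a calcium channel gamma subunit, was at 132 and 133 at 100 nM, 652 and 835 at 10 nM, and 575 and 422 without GnRH. Only the 100 nM arrays were low, by 1.60 on the log2 scale (-1.60 ± 0.23, adjusted p = 0.00462). Cacnb2, a calcium channel beta subunit, was at 1200 and 1300 against 2370 and 2840 (-0.96 ± 0.20, adjusted p = 0.0315). The uncharacterised C030006K11Rik was at 219 and 187 against 1200 and 814, with 880 and 889 unstimulated (-1.65 ± 0.26, adjusted p = 0.00462). Gys1, muscle glycogen synthase, fell by 1.01 (SE 0.20, adjusted p = 0.0282). Nnt, Dnph1, Commd5 and Pstk fell by 0.93 to 0.96.

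Cyp51 and Mvd, both enzymes of cholesterol synthesis, fell at 100 nM. Of 19 tested genes of the cholesterol and fatty acid synthesis list, 2 fell and 0 rose, against 0.338% and 0.531% of 6214 genes by their representative probe sets. The list's median was -0.52 against -0.03 for all genes, and 18 of 19 values were below 0 (53.6% of all genes were). Both 100 nM arrays lay below both 10 nM arrays for 14 of 19 genes, against 25.6% of all genes, and 10 had an unadjusted p under 0.05 as lower, against 8.38%. Idi1, isopentenyl diphosphate isomerase, was the 1 list gene above 0, at 21000 and 20000 against 14900 and 16600 (0.38, adjusted p = 0.347). Cyp51, lanosterol 14-alpha demethylase, was at 5640 and 5960 at 100 nM, 12300 and 11000 at 10 nM, and 3910 and 4050 unstimulated. Its level was therefore highest at 10 nM (-0.98 ± 0.18, adjusted p = 0.0152). Mvd, mevalonate diphosphate decarboxylase, was at 1110 on both 100 nM arrays against 3340 and 2060, with 1830 and 2460 unstimulated (-1.13 ± 0.22, adjusted p = 0.0237). Scd1, stearoyl-CoA desaturase, was called by one probe set (-1.14 ± 0.22, adjusted p = 0.0237) and not by its representative (-0.67, adjusted p = 0.0727), and is named after its values were seen.

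The promoters of Cyp51 and Mvd are shown with their CCAAT boxes (CCAAT, either strand) in capitals, since all 14 list genes with a window held one. Both are on the minus strand of GRCm38.p6, at chr5:4104698-4104947 and chr8:122443423-122443672.
Cyp51: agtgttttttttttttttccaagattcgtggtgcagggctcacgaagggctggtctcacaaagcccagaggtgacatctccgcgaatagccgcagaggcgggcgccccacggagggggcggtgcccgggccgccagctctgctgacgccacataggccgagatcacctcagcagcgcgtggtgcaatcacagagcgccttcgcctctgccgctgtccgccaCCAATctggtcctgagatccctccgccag
Mvd: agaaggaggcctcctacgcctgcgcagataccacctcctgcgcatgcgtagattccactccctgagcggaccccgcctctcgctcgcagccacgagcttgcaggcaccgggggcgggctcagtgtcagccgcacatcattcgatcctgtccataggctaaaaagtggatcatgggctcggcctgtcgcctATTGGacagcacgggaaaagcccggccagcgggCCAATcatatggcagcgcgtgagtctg
Counted by gene over whole windows, as for the AP-1 site, the box was in 14 of 14 such list genes (100%). It was in 12 of 17 genes that fell (70.6%), 12 of 30 that rose (40%) and 2149 of 5009 tested (42.9%). Counted by window, it was in 37.4% of all windows. The sterol element TCACNCCAC was in 1 of the 14 list genes, Hmgcs1, against 1.7% of tested genes.

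Pdia4 and Creld2, which work in the endoplasmic reticulum, fell as well. Of 23 tested genes of the unfolded protein response list, 2 fell and 0 rose (0.338% and 0.531% of all genes), with a median of -0.28 and 17 values below 0 (53.6% of all genes). Both 100 nM arrays lay below both 10 nM arrays for 13 (25.6% of all genes). With quantile normalisation, equal array medians or no intensity trend, 0 of the 23 passed, and the medians were -0.31, -0.27 and -0.28. The median was -0.43 without 100 nM array A. Pdia4, a protein disulfide isomerase, was at 774 and 1390 against 3750 and 2380 (-1.38 ± 0.30, adjusted p = 0.0395). Creld2, a secreted ER-stress protein, was at 7090 and 6350 at 100 nM and 14600 and 11800 at 10 nM, while the unstimulated arrays read 6360 and 6530. The 100 nM level was thus near the unstimulated one and the 10 nM level above it (-0.95 ± 0.20, adjusted p = 0.0372). Creld2 held the endoplasmic reticulum stress element (searched on both strands, and containing a CCAAT box). The element is in capitals on the plus-strand window of Creld2, chr15:88819396-88819645 of GRCm38.p6. It is shown because 6 of 21 list genes with a window held it (28.6%), against 10 of 5009 tested genes (0.2%).
Creld2: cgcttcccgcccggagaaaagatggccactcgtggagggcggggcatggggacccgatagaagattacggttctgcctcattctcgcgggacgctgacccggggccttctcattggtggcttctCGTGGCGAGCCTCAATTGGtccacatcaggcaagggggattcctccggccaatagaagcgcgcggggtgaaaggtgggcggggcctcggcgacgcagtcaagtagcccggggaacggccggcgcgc
In this window the element reads on the opposite strand. Xbp1, the transcription factor of this response, was at 12700 and 14800 against 19600 and 20600 (-0.55, adjusted p = 0.17), and Atf4 at 74300 and 81400 against 65800 and 60400 (0.30, adjusted p = 0.531).

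The immediate early genes had a median of 0.60 over 23 tested, with 21 values above 0 (46.4% of all genes were) and both 100 nM arrays above both 10 nM arrays for 16 (19.2% of all genes). Only Klf4 of this list passed (0.869% of all genes did), and 11 had an unadjusted p under 0.05 as higher, against 6.76% of all genes. The median was 0.39 without 10 nM array C. Egr1, the main early transcription factor of the GnRH response, was at 31500 and 29200 against 18500 and 15300, from 1310 and 3260 unstimulated. Its arrays did not overlap, but the difference did not pass (0.84 ± 0.38, adjusted p = 0.321), and a dimmer probe set gave -0.62. Egr2 was at 9950 and 10800 against 5720 and 4760 (0.97 ± 0.36, adjusted p = 0.224). In the fit of the compared groups alone, Egr1 and Egr2 passed (adjusted p = 0.045 and 0.031, each the lowest over the alternatives, whose highest was 0.998). It had 2 residual and 13.2 prior degrees of freedom, so that a gene's spread came mostly from the prior. That fit called 4 of the 23 list genes higher, and 42 of all 6214 genes higher and 17 lower. Fosl1, an AP-1 subunit, was at 4440 and 3440 against 2250 and 1730 (0.93 ± 0.23, adjusted p = 0.0662). Atf3, a stress-induced factor, gave 0.76 (adjusted p = 0.525).

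Of 14 tested feedback regulators 0 passed (0.531% of all genes rose), 10 had both 100 nM arrays above both 10 nM arrays (19.2% of all genes), and the median was 0.30. In the fit of the compared groups alone 2 passed as higher, where 42 of all 6214 genes did. Dusp1, a MAP kinase phosphatase, was at 20300 and 19600 against 10700 and 9140 (1.00 ± 0.27, adjusted p = 0.0876). Rgs2, a brake on Gq, gave 0.81 ± 0.30 (adjusted p = 0.215) and Rrad, a small GTPase that inhibits calcium channels, 1.15 ± 0.32 (adjusted p = 0.0954). The Egr corepressors Nab1 and Nab2 gave -0.08 and 0.28, with 95% intervals from -0.54 to 0.39 and from -0.15 to 0.70. Srxn1, the peroxiredoxin reductase sulfiredoxin, was at 65000 and 82100 against 40600 and 30700 (1.05 ± 0.26, adjusted p = 0.0654), and a second, dim probe set gave 0.02. Dusp1, Rrad and Srxn1 passed in the fit of the compared groups alone (adjusted p = 0.0221, 0.0144 and 0.0237). Over all alternatives their adjusted p ran from 0.00521, 0.0144 and 0.0077 to 0.998.

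Gonadotrope genes had a median of -0.03 over 22 tested, with 0 called (0.869% of all genes were). Lhb, the luteinising hormone beta subunit, was at 2630 on both 100 nM arrays and 3490 and 2570 at 10 nM (95% interval of the log2 difference -0.58 to 0.23). The GnRH receptor gene Gnrhr was at 452 on both 100 nM arrays, 395 and 569 at 10 nM, and 750 and 1010 unstimulated (interval -0.60 to 0.49). Cga gave 0.30 (interval -0.11 to 0.71). Fshb, the follicle-stimulating hormone beta subunit, was below the filter, at 378 and 255 against 220 and 206. Pitx1, a pituitary homeobox factor, was at 13600 and 12700 against 26000 and 19600 (-0.77 ± 0.21, adjusted p = 0.0907). Nr5a1, steroidogenic factor 1, named after its values were seen, was called lower by 2 probe sets (-0.95 and -0.84) and gave -0.07 by the representative one (adjusted p = 0.906). Of 24 tested genes of GnRH receptor signalling 0 passed (0.869% of all genes did), with a median of -0.04. Prkca, protein kinase C alpha, was at 2000 and 1450 against 626 and 990 (0.97 ± 0.23, adjusted p = 0.0553), and passed with quantile normalisation (0.0433, over all alternatives from 0.0176 to 0.998).

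**Figure D3:**
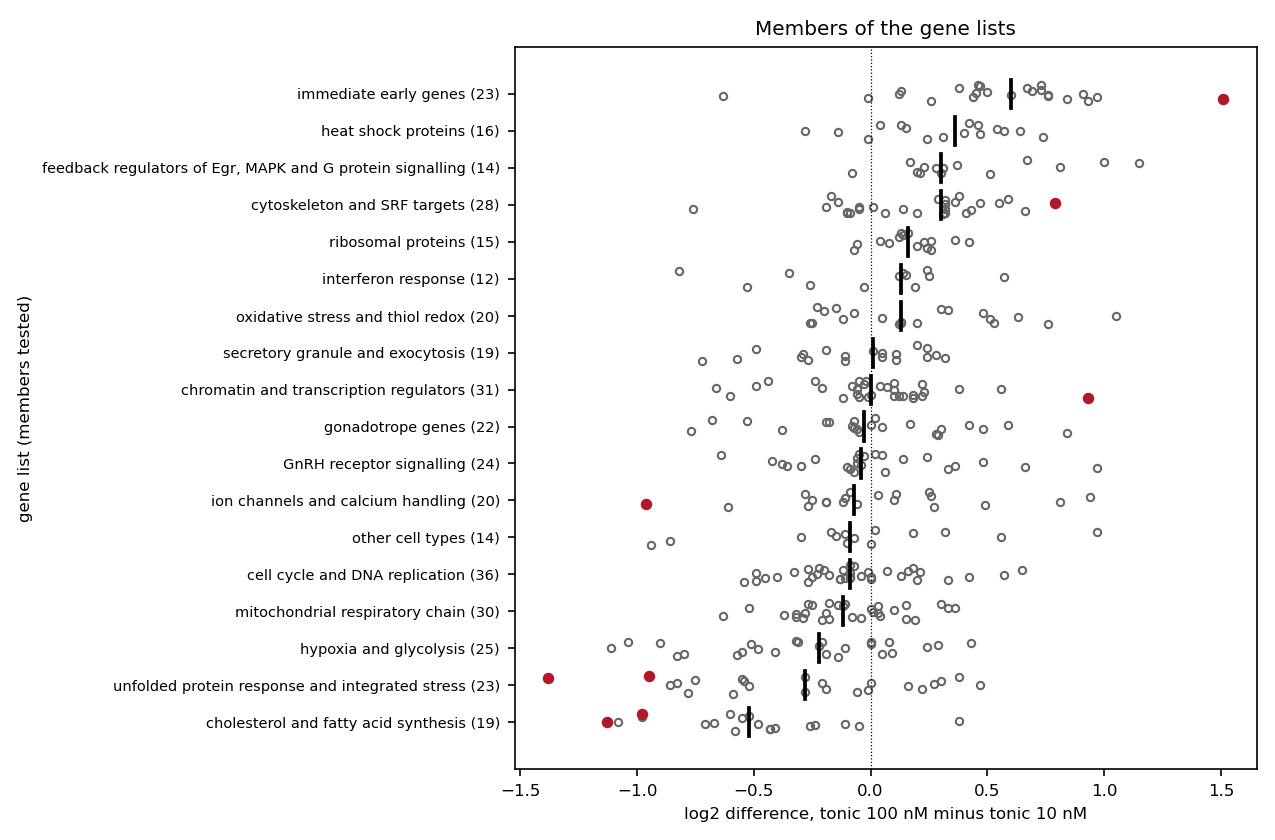
Difference between tonic 100 nM and tonic 10 nM (log2) of each tested gene in the 18 gene lists, with 1 point per gene, filled where the gene was called, and a bar at the list's median. The immediate early list has a median of 0.60 and the cholesterol and fatty acid list of -0.52, beside -0.03 for all genes.

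The heat shock proteins had a median of 0.36 over 16 tested, with 13 above 0 (46.4% of all genes). For 8 of them both 100 nM arrays lay above both 10 nM arrays (19.2% of all genes), and 0 were called (0.869% of all genes). Hsph1, a large heat shock protein, gave 0.74 ± 0.18 (adjusted p = 0.0668). Cytoskeleton and serum response factor targets had a median of 0.30 over 28 tested, and of 0.11 without 10 nM array C. Of these 1 was called, Actn1 (0.869% of all genes were). The hypoxia and glycolysis genes had a median of -0.22 over 25 with 0 called (0.869% of all genes). That median was -0.02 without 100 nM array A, -0.14 without 10 nM array B, -0.47 without 10 nM array C and -0.43 without 100 nM array D. Pfkl, liver phosphofructokinase, gave -1.04 ± 0.27 (adjusted p = 0.0814) and passed in the fit of the compared groups alone (0.0414, over all alternatives from 0.0023 to 0.998). The remaining lists had medians between -0.12 and 0.16 and no other called gene than Cacnb2 and Id2. Their members of smallest p were B2m of antigen presentation (0.57 ± 0.17, adjusted p = 0.118), the vesicle GTPase Rab3d (-0.57), the cell cycle kinase Cdk2 (-0.54), the respiratory chain subunit Sdha (-0.52) and the ribosomal protein Rps3 (0.42).

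Whether the dose difference depended on how GnRH was delivered was tested as the tonic difference minus the mean difference with 8, 4 and 1 pulses, and minus that with 8 pulses alone. Neither called any probe set by limma (0% of 8491). At an unadjusted p under 0.05 there were 330 and 181, both below the 425 expected by chance. The nearest were Cacng1 (-1.59 ± 0.27), Hey1 (1.62 ± 0.29) and Cyp51 (-1.12 ± 0.21), each with an adjusted p of 0.104. For Cacng1 the dose differences with 8, 4 and 1 pulses were -0.07, -0.16 and 0.19, against -1.60 with tonic GnRH. Hey1 gave 0.48, -0.43 and -0.15, against 1.59. Cyp51 gave -0.19, 0.16 and 0.47, against -0.98. Against 8 pulses alone the smallest adjusted p was 0.868, for Cacng1, Txnrd3 (1.39) and Prnp (1.29). Mmp12 gave 2.31, 2.84 and 1.02 with pulses, and its tonic difference less their mean was 0.04 ± 0.38. Klf4 gave 1.64, 2.13 and 0.91, and less their mean -0.05 ± 0.26. Serpinb2 gave 2.47, 1.59 and -0.70, so that its single-pulse value had the opposite sign.

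Of the 42 probe sets higher with tonic 100 nM, 40, 39 and 33 were also above 0 with 8, 4 and 1 pulses, where 4084, 4428 and 4272 of all 8491 were. Their medians were 0.98, 0.78 and 0.30. Of the 26 lower, 25, 23 and 23 were below 0, with medians of -0.52, -0.47 and -0.26. The pulse arrays are other arrays with the same letters, so that a letter effect common to all patterns would appear in these values too, and it was not tested. The cholesterol list had medians of -0.20, -0.05 and 0.12 with 8, 4 and 1 pulses.

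**Figure D4:**
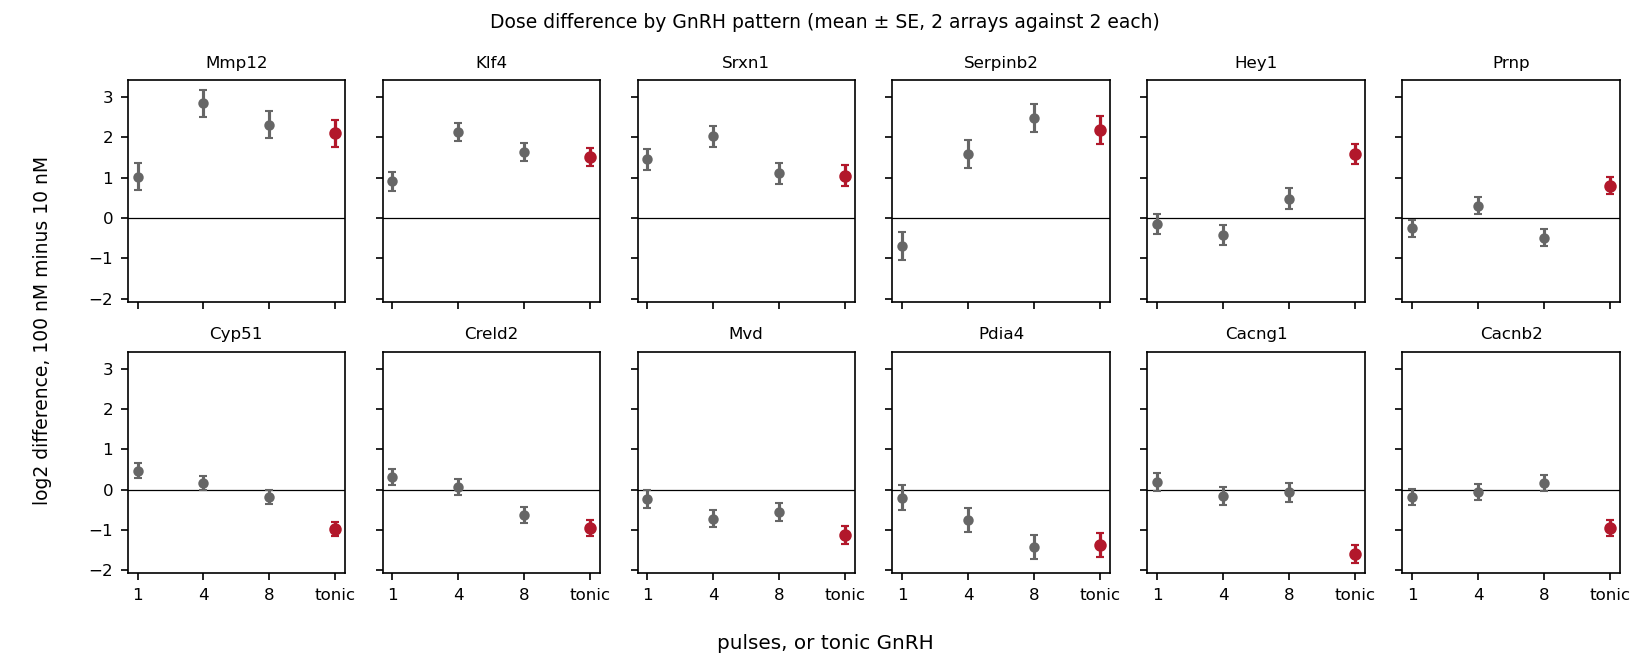
Dose differences (100 nM minus 10 nM, log2, with SE bars) of 12 genes with 1, 4 and 8 pulses (grey) and with tonic GnRH (red). Mmp12 lies above 0 in all 4 patterns (in that order 1.02, 2.84, 2.31 and 2.10), whereas Cacng1 lies near 0 with pulses (0.19, -0.16 and -0.07) and at -1.60 with tonic GnRH.

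Levels against the unstimulated arrays are given side by side, since both contrasts share the same 2 controls, and those bear the letters of the 100 nM arrays. Mmp12 was 5.71 above unstimulated at 100 nM and 3.61 at 10 nM on the log2 scale, Egr1 3.76 and 2.92, and Serpinb2 4.00 and 1.82. Cyp51 was 0.52 and 1.50 above, Creld2 0.06 and 1.01, and Mvd -0.84 and 0.28. The cholesterol list had medians of 0.08 at 100 nM and 0.54 at 10 nM. The immediate early list had medians of 2.02 and 1.35.

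Leaving out 1 tonic array at a time left 2 called probe sets without 100 nM array A, 5 without 10 nM array B, 5 without 10 nM array C and 29 without 100 nM array D, where the lone array is taken to vary like the other groups. Serpinb2 alone of 26 called named genes kept its call without array A. Mmp12, Csf2rb2, Klf4 and Cacng1 kept it without array B, and Hey1, C030006K11Rik and Mvd without array C. Without array D 10 of the 26 kept it, among them Mmp12, Il1rn and Cacng1. Groups taken from the pulse number field in place of the titles set 100 nM array A and the D arrays titled 8 pulses and unstimulated against 10 nM array B alone. The calls were not kept there, and the dose difference of Mmp12 was -0.19. The 12 samples whose labels agree hold 1 tonic array of each dose, 100 nM A and 10 nM B, and the calls were not kept there either. Which label is right was not tested.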

How the data were processed

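Signal intensities of 20 Affymetrix arrays were deposited by the authors as 1 value per probe set. The submitters' processing notes name MAS5, with the version, chip file and scaling not given in the sources used here. All columns were mapped to samples through their labels, with 0 left over. After 66 control probe sets were left out of 12488, 8491 of 12422 probe sets had a signal above 427 (the 40th percentile) on 2 or more arrays. These were tested as log2(signal + 166.8), the constant being the 25th percentile. A limma 3.58.1 (R 4.3.3) model of all 10 groups, with an intensity trend, had 10 residual and 8.20 prior degrees of freedom, with a threshold of 0.05 on adjusted p. The script was tested on simulated data.

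Symbols came from the platform annotation: 10833 probe sets had 1 gene, 396 several and 1193 none, and 0 symbols changed through Entrez identifiers. A gene was represented by 1 probe set in list counts. Named genes were the 12 largest rises and 12 largest falls among genes called by their representative probe set, the called genes or smallest p of each list, the smallest p of each comparison of patterns, and genes always named. Members and lists were chosen with earlier results of these data known. Alternatives covered the normalisation, the constant, the filter, the trend, blocks, the labels and leaving out arrays. Arrays of the same letter deviated together in 14 of 15 pairs for A and D and in 6 of 6 for B and C (correlation over 0.1), but the tonic doses share no letter. Promoters and coordinates are RefSeq's, build GRCm38.p6.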

Additional observations from a re-analysis of the deposited data

How the results depend on the processing

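With tonic GnRH, the 68 calls became 32 with equal array medians, 43 with a floor in place of the constant and 33 without the intensity trend. They were not kept with the 12 samples of agreeing labels, which leave 1 array at each tonic dose. Nor were they kept with groups taken from the pulse number field, which leave 1 array at tonic 10 nM. In each other alternative run on them, those of the 26 called named genes that were tested kept their direction. The fit with the letter as a replicate block (fixed within dose) called 359, and the tonic doses share no letter. It lost none of the 26 and added Dusp1, Prkca, Pitx1, Hsph1, Pfkl, Srxn1, B2m, Prnp, Rgs2 and Rrad. The feedback and immediate early lists then had 4 called each, the cholesterol and unfolded protein lists 6 each. Calls rose over the whole array in this fit: 131 of all 6214 genes were higher and 152 lower, where 33 and 21 were as reported. With the letter as a random block Dusp1, Prkca, Pfkl and Srxn1 were added. Of the 26, 7 lost their calls with quantile normalisation (Plaur, Pdia4, Nnt, Dnph1, Creld2, Actn1 and Id2) and 9 with equal medians (these, Ampd3 and Pstk). With the constant at the 10th percentile 5 lost them (Ifi202b, Anxa1, Nppb, Plaur and Id2). The floor took the calls of 11, Serpinb2 and Il1rn among them, and 11 were lost without the trend. Leaving out 1 tonic array gave 2 to 29. With groups from the pulse number field, Mmp12 turned to -0.19 (adjusted p 0.998, over alternatives from 0.000269 to 0.998), and the medians of the immediate early, feedback and cytoskeleton lists were -0.27, -0.09 and -0.28. Of calls on the comparison with the mean of pulses (0), there were 1 with the constant at the 10th percentile and 1 with the floor (Cacng1 in both), 4 without the trend (Cacng1, Krt17, Hey1 and Wwc1), 3 with the letter as a random block (Cacng1, Cyp51 and Hey1), and 0 to 1 without 1 array. Against 8 pulses alone there were 0 in each alternative run. With the floor, 46.5% of calls were higher against 61.8%. The comparison with the mean of pulses could not be made without the 3 arrays of highest Gapdh ratio, which leaves no 4-pulse 100 nM array.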

Other observations

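Outside the genes named by rule, and chosen after their values were seen, Capn2, a calcium-activated protease, was at 13200 and 12000 at 100 nM and 5400 and 4870 at 10 nM (log2 difference 1.27 ± 0.21, adjusted p = 0.006). Angpt2, a ligand of the endothelial receptor Tie2, was at 3740 and 3890 against 1710 and 995, from 325 and 308 unstimulated (1.43 ± 0.32, adjusted p = 0.0449). Stx3, a syntaxin of membrane fusion, rose by 1.09 ± 0.21 (adjusted p = 0.0216). Gadd45a, a growth arrest and stress gene, rose by 1.04 ± 0.23, and Nefm, a neurofilament subunit, by 1.12 ± 0.24 (both adjusted p = 0.0395).

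Among those lower, Bmyc, a relative of Myc, was at 2890 and 2540 against 5290 and 4340, with 9030 and 8780 unstimulated (-0.79 ± 0.15, adjusted p = 0.0216). Racgap1, a regulator of cell division, was at 4650 and 5720 against 9170 and 8500 (-0.76 ± 0.17, adjusted p = 0.0395). Alad, an enzyme of haem synthesis, was at 5970 and 6560 against 9720 and 10100 (-0.65 ± 0.15, adjusted p = 0.0449).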
